A study of Mus musculus with 16 samples.

Results

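The genes described here are 8 markers of T cells, Cd3d, Cd3e, Cd3g, Cd8a, Cd8b1, Lck, Nkg7 and Cxcr6, read as raw counts in bulk RNA of mouse brain. They were taken from the deposited table by gene symbol, 8 of 54532 entries, and each had at least 1 count in some library. The 16 libraries came from female mice of 9 months of age and form 4 groups of 4. Ch25h+/+ mice without (Tau-) or with (Tau+) the tau allele are the first pair of groups, and Ch25h-/- mice without or with it are the second. Ch25h encodes cholesterol 25-hydroxylase, which makes an oxysterol in cells exposed to interferon. Ch25h-/- is read as animals without the enzyme and Tau+ as animals with a tau transgene. The transgene, the cells in which it is active and the kind of Ch25h deletion are not given in the sources used here. The labels name frontal cortex and the series text names the hippocampus. Summed cortex markers lay at 629 to 851 CPM (counts normalised to the size of the library) and summed hippocampus markers at 33.0 to 44.3 CPM. CPM, except those of CT010467.1, use library totals scaled by edgeR's trimmed mean of M-values (TMM).

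Library totals were 15530352 to 25602500 counts, so that 3 counts of a gene, taken here as the floor, equal 0.117 to 0.195 CPM. No libraries held identical values, and pairs of libraries correlated at 0.970 to 0.994. Replicate numbers within a group follow the order of the records and pair nothing. The labels do not state that the libraries of a group are separate animals, so p-values measure only the spread between libraries. Ch25h had 0 counts in all 8 Ch25h-/- libraries and 5 to 30 counts in the 8 Ch25h+/+ libraries. Prnp, whose promoter is used in some tau transgenes, lay at 1414 to 1935 CPM in the Tau+ libraries and at 708 to 839 CPM in the Tau- libraries. The ribosomal transcript CT010467.1 separated the libraries into 9 with 111 to 475 CPM of it and 7 with 2289 to 5684 CPM, here of unscaled totals. The 7 rich libraries were all 4 of Ch25h-/- Tau- and 3 of Ch25h-/- Tau+, all but its replicate 1. Ch25h loss and this library class therefore cannot be told apart in Tau-, and in Tau+ 1 library separates them.

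T cells recognise peptides on major histocompatibility complex (MHC) molecules through a receptor that signals through the CD3 chains. CD8 binds MHC class I beside the receptor, and the kinase Lck, carried by the coreceptor, phosphorylates the CD3 chains. In the healthy brain T cells are rare and lie mainly in the meninges, choroid plexus and vessels. CD8 T cells enter the brain tissue in infection, ageing and models of tau disease. In bulk tissue, fewer cells of a type and less RNA per cell cannot be told apart.

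Promoter sequences of 7 of the 8 genes were matched by symbol in RefSeq (GRCm38.p6), in 8 windows because Lck has a pair of start sites; Cd8b1 was not matched. Shown are the 250 bases before the start sites of Cd3g and Cd3d, which are transcribed away from each other from starts 1355 bases apart and had a handful of counts. They are shown beside the upstream start of Lck, the gene of the 8 with the most counts. Capitals mark matches, on either strand, to a short string of letters from the motif of RUNX, ETS, GATA or TCF/LEF factors.
Cd3g, chr9:44980432-44980681, minus strand: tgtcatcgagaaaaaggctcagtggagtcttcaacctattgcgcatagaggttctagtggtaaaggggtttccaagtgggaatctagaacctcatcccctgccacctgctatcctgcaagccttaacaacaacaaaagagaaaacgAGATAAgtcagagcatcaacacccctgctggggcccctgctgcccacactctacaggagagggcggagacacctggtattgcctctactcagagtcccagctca
Cd3d, chr9:44981536-44981785, plus strand: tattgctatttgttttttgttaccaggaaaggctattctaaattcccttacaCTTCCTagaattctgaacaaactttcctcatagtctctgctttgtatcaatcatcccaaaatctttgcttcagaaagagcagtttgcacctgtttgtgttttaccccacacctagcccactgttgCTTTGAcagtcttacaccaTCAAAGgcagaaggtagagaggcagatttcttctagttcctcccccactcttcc
Lck, upstream start, chr4:129573642-129573891, minus strand: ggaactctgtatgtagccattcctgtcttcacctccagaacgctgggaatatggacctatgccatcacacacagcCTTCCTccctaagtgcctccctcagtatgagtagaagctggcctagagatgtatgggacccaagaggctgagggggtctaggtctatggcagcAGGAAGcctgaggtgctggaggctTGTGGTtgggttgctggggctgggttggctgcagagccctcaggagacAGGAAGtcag
The matches in these windows did not overlap one another. The RUNX letters searched, TGTGGT, stood in 3 of the 8 windows (Lck, Nkg7 and Cxcr6) and in 14.0% of 32851 promoter windows of the same length. The ETS letters, AGGAAG, stood in 5 of 8 (both of Lck, Cd3d, Cd3e and Nkg7) against 29.5% of all. The GATA letters, AGATAA, stood in 1 of 8 (Cd3g) against 9.99%. The TCF/LEF letters, CTTTGA, stood in 2 of 8 (Cd3d and Cxcr6) against 13.8%. A match is a description of the letters, and no binding was measured.

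Lck stood apart from the other 7 genes in abundance. It had 408 counts over the 16 libraries, and the other 7 had 154 together. Without Lck, 51 of the 112 values (7 genes in 16 libraries) were 0, 14 were over 3 counts, and the highest was 10. Per kilobase of annotated exons (GENCODE M21), the level pooled over all libraries was 0.451 CPM per kb for Lck, with a 95% exact Poisson interval of 0.409 to 0.497. Cxcr6 followed at 0.0638 CPM per kb (0.0451 to 0.0875) and Nkg7 at 0.0461 (0.0245 to 0.0788). Cd3e was at 0.0286 CPM per kb, Cd8a at 0.0250, Cd8b1 at 0.0219, Cd3d at 0.0196 and Cd3g at 0.0178. Lck lay above every other interval, while each neighbouring pair below it had overlapping intervals. These intervals, and all others here, cover counting error only.

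**Figure D1:**
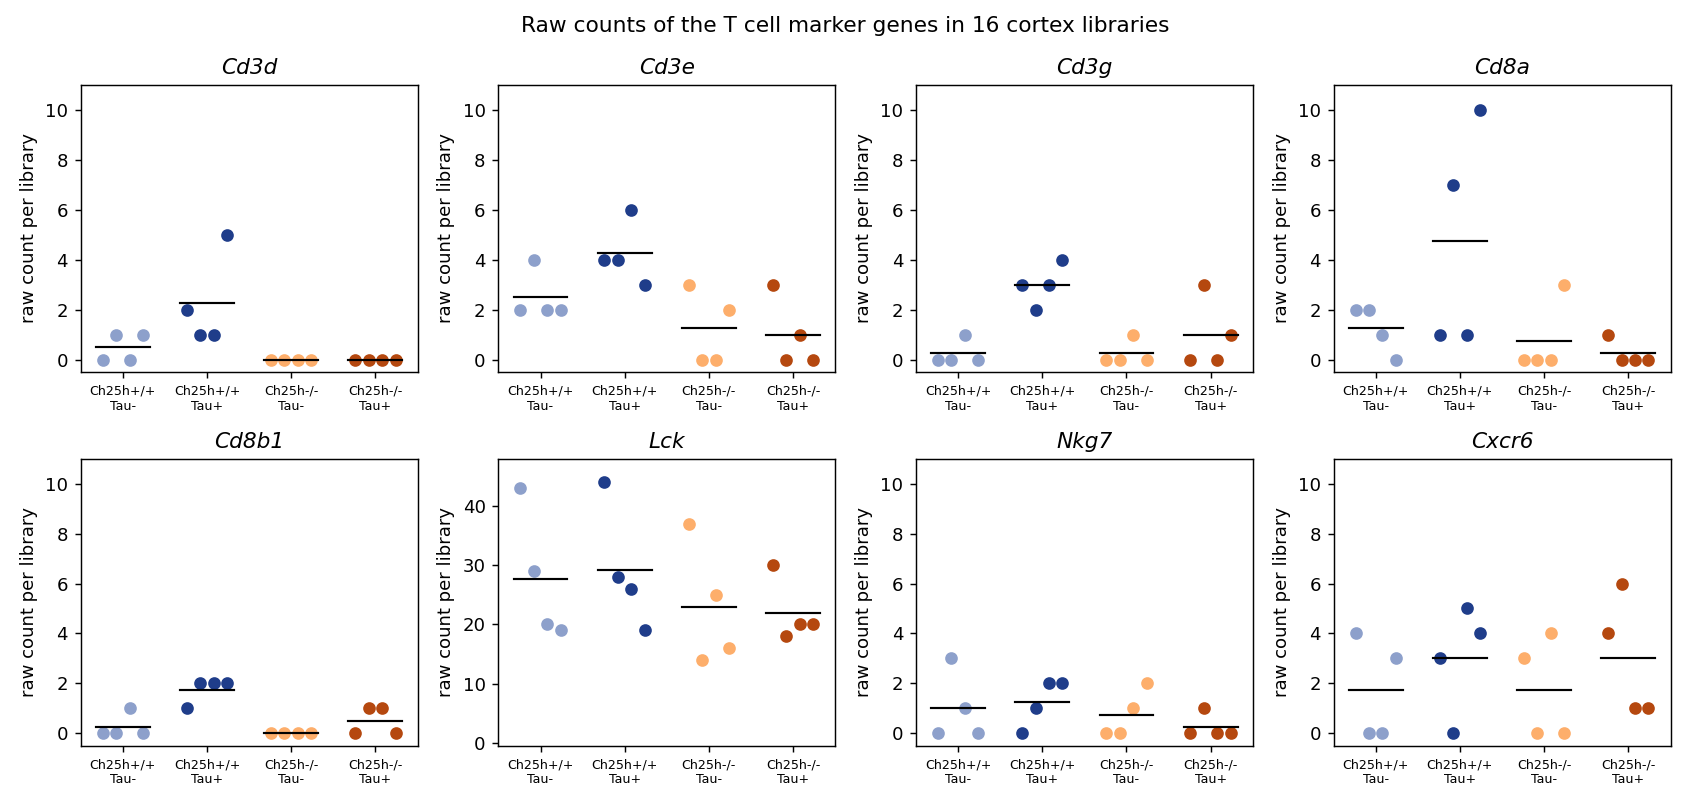
Raw counts per library (y axis, linear) of the 8 T cell marker genes in the 4 groups (x axis); each point is 1 library and each line a group mean, and the Lck panel has its own scale. Lck lies at 14 to 44 counts in every group, while the other 7 genes lie at 0 to 10 counts and Cd3g is highest in Ch25h+/+ Tau+.

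Cd3e, Cd3g and Cd3d encode the CD3 epsilon, gamma and delta chains, which carry the receptor's signal into the cell and lie together on chromosome 9. Cd3e (chr9:44998740-45009627, minus strand) had 2, 4, 2 and 2 counts in Ch25h+/+ Tau- and 4, 4, 6 and 3 in Ch25h+/+ Tau+. It had 3, 0, 0 and 2 counts in Ch25h-/- Tau- and 3, 0, 1 and 0 in Ch25h-/- Tau+. All 8 Ch25h+/+ libraries thus held reads of Cd3e, and 4 of the 8 Ch25h-/- libraries did. Gm48719 and Gm48720, which overlap Cd3e in the annotation, had 0 counts in every library.

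Cd3g (chr9:44969572-44980431, minus strand) had 0, 0, 1 and 0 counts in Ch25h+/+ Tau- and 3, 2, 3 and 4 in Ch25h+/+ Tau+. In Ch25h-/- Tau- it had 0, 0, 1 and 0 counts, and in Ch25h-/- Tau+ 0, 3, 0 and 1. Every Ch25h+/+ Tau+ library lay above every Ch25h+/+ Tau- library, while the Ch25h-/- groups overlapped each other. Cd3d (chr9:44981786-44987339, plus strand) had 0, 1, 0 and 1 counts in Ch25h+/+ Tau- and 2, 1, 1 and 5 in Ch25h+/+ Tau+. No Ch25h-/- library held a read of Cd3d. The floor of 3 counts over the group equals 0.0440 CPM in Tau- and 0.0402 CPM in Tau+, and the upper ends of the 95% exact Poisson intervals are 0.0541 and 0.0495 CPM.

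Cd8a and Cd8b1 encode the alpha and beta chains of CD8 and lie beside each other on chromosome 6. Cd8a (chr6:71373427-71379173, plus strand) had 2, 2, 1 and 0 counts in Ch25h+/+ Tau- and 1, 7, 1 and 10 in Ch25h+/+ Tau+. Among Ch25h-/- libraries its counts were 0, 0, 0 and 3 in Tau- and 1, 0, 0 and 0 in Tau+. Replicates 2 and 4 of Ch25h+/+ Tau+ held 7 and 10 of that group's 19 counts, and the other replicates held 1 each. Cd8b1 (chr6:71322788-71337494, plus strand) had 0, 0, 1 and 0 counts in Ch25h+/+ Tau- and 1, 2, 2 and 2 in Ch25h+/+ Tau+. It had 0 in every Ch25h-/- Tau- library and 0, 1, 1 and 0 counts in Ch25h-/- Tau+.

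The choroid plexus, a site where T cells lie in the healthy brain, was captured unevenly. Its 6 marker genes summed to 40.8, 2288, 35.3 and 1130 CPM in Ch25h+/+ Tau+ replicates 1 to 4, so the 2 libraries with most Cd8a were also the 2 with most choroid plexus RNA in that group. In Ch25h-/- Tau+ the same sum was 55.8, 59.5, 2293 and 2753 CPM, and Cd8a had 0 counts in the 2 high libraries. In Ch25h+/+ Tau- it was 15.3, 291, 1177 and 1426 CPM, with 1 and 0 counts of Cd8a in the 2 highest. In Ch25h-/- Tau- it was 45.0, 1626, 92.3 and 154 CPM, and all 3 counts of Cd8a were in the library at 154 CPM. The part of choroid plexus RNA in the Cd8a counts was not tested.

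Lck (chr4:129548344-129573641, minus strand), the kinase that starts receptor signalling, had 43, 29, 20 and 19 counts in Ch25h+/+ Tau- and 44, 28, 26 and 19 in Ch25h+/+ Tau+. It had 37, 14, 25 and 16 counts in Ch25h-/- Tau- and 30, 18, 20 and 20 in Ch25h-/- Tau+. The 4 groups overlapped throughout, and the spread within 3 of them was wide. Mean levels were 1.35 ± 0.533 CPM in Ch25h+/+ Tau-, 1.496 ± 0.822 in Ch25h+/+ Tau+, 1.36 ± 0.654 in Ch25h-/- Tau- and 1.18 ± 0.0476 in Ch25h-/- Tau+ (SD, n = 4 each).

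Nkg7 encodes a granule protein of cytotoxic T cells and natural killer (NK) cells, and Cxcr6 encodes the receptor for the chemokine Cxcl16 on tissue-resident T cells. Nkg7 (chr7:43437073-43438249, plus strand) had 0, 3, 1 and 0 counts in Ch25h+/+ Tau- and 0, 1, 2 and 2 in Ch25h+/+ Tau+. In Ch25h-/- Tau- it had 0, 0, 1 and 2 counts, and in Ch25h-/- Tau+ 0, 1, 0 and 0. Every group held libraries at 0, and all groups overlapped.

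Cxcr6 (chr9:123806475-123811760, plus strand) had 4, 0, 0 and 3 counts in Ch25h+/+ Tau- and 3, 0, 5 and 4 in Ch25h+/+ Tau+. It had 3, 0, 4 and 0 counts in Ch25h-/- Tau- and 4, 6, 1 and 1 in Ch25h-/- Tau+. Each group mixed libraries at 0 or 1 count with libraries at 3 or more. Cxcr6 lies within Fyco1 on the opposite strand (chr9:123789500-123851899), which had 420 to 1441 counts per library. Whether strand was used in counting is not given in the sources used here, so Cxcr6 reads cannot be told apart from Fyco1 reads. Fyco1 was at 43.2 to 52.5 CPM in the 5 libraries with 0 counts of Cxcr6, at 25.9 to 72.8 CPM in the 5 with 1 to 3 counts and at 44.9 to 69.0 CPM in the 6 with more than 3.

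The first comparison, Tau+ against Tau- with Ch25h present, asks how the tau transgene moves these genes. None of the 8 passed edgeR's quasi-likelihood F test at an adjusted p of 0.05, and pooled levels were higher in Tau+ for 8 of 8. The direction turned for Lck in 3 and for Nkg7 in 4 of the 16 fits that left out 1 library. In the filtered fit 1.56% of 17736 genes passed in either direction, and in the fit of the 33997 genes with at least 1 count 1.14% did. Only Lck passed edgeR's filter on low counts; its log2 fold change was 0.13 with a standard error (SE) of 0.37 and an adjusted p of 0.983 by edgeR. The other 7 were tested in the fit of all genes with at least 1 count. Of them Cd3g alone was under 0.05 before adjustment, as were 6.59% of all genes. Its log2 fold change was 3.08 (SE 1.27), with an adjusted p of 0.528 by edgeR.

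Cd3g and Cd8b1 did not overlap between these groups, against 2.5% of 33997 genes that lay wholly higher in Tau+. The exact two-sided permutation p was 0.0286 for each (n = 4 against 4), the smallest that this design can give, unadjusted; 52 such tests were run, 28 of them on the 7 members that the filter drops. For Cd8b1 the separation rested on depth, since 1 library of each group had 1 count. The ratio of pooled levels was 12.002 for Cd3g, with a 95% exact interval of 1.78 to 513. This ratio and that of Cd8b1 rest on 1 count in Tau-, under the floor. It was 3.801 (1.37 to 13.02) for Cd8a, 4.50 (0.932 to 42.8) for Cd3d and 7.001 (0.899 to 316) for Cd8b1. For Cd3e it was 1.70 (0.735 to 4.16), for Cxcr6 1.71 (0.622 to 5.14), for Nkg7 1.25 (0.269 to 6.30) and for Lck 1.05 (0.806 to 1.38). Of the 8, the Cd3g and Cd8a intervals lay wholly above 1, and these intervals hold no spread between libraries. The log2 fold change of Cd3g was 4.57 without Ch25h+/+ Tau- replicate 3, which held the 1 count of its group, and that of Cd8a went from 1.77 to 1.11 without Ch25h+/+ Tau+ replicate 4. That of Cd8b1 went from 2.31 to 3.796 without Ch25h+/+ Tau- replicate 3, and that of Cd3d from 1.91 to 1.25 without Ch25h+/+ Tau+ replicate 4. Cd3e went from 0.73 to 1.10 without Ch25h+/+ Tau- replicate 2. Cxcr6, at 0.77 with all libraries, ranged from 0.36 without Ch25h+/+ Tau- replicate 3 to 1.47 without its replicate 1, and 4 more libraries moved it by over 1.5 times (Ch25h+/+ Tau- replicates 2 and 4, Ch25h+/+ Tau+ replicates 2 and 3).

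**Figure D2:**
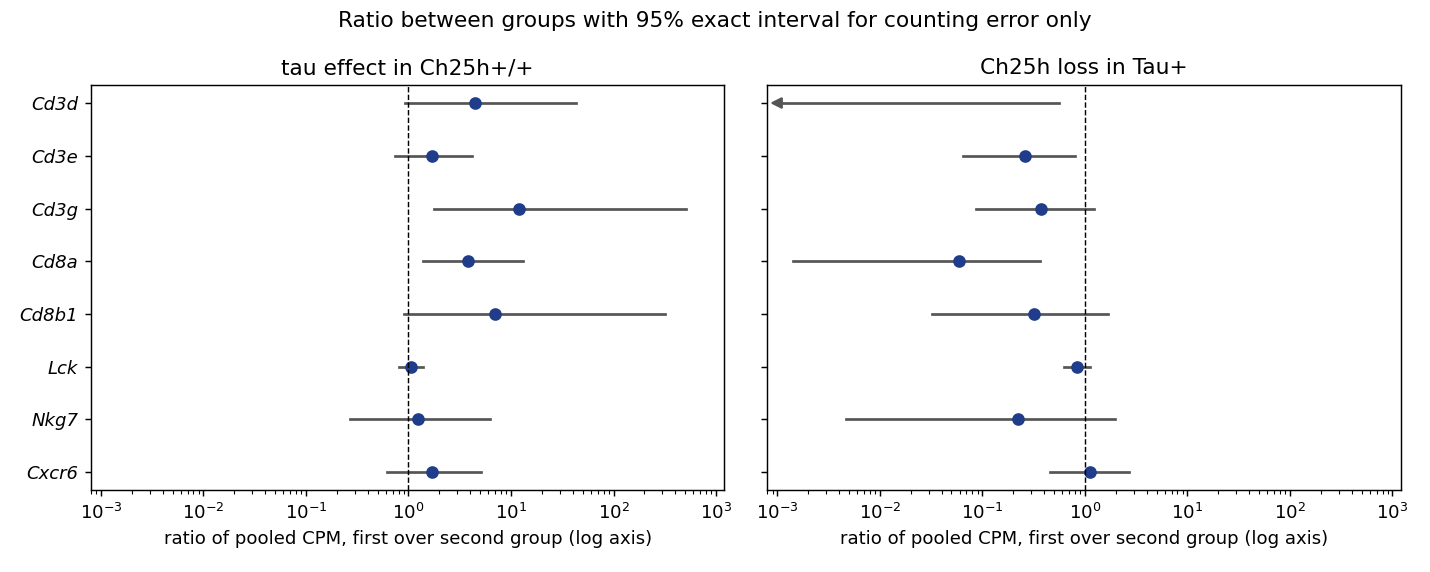
Ratio of pooled CPM between groups (x axis, log scale) for each gene (y axis), Tau+ over Tau- in Ch25h+/+ on the left and Ch25h-/- over Ch25h+/+ in Tau+ on the right; points are ratios, lines 95% exact intervals for counting error only, and the arrow is an upper bound for Cd3d, which had 0 counts in Ch25h-/- Tau+. Lck sits near 1 with a narrow interval in both panels (1.05 on the left), and the other intervals are wide.

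Summed counts describe the same values with less counting error; the sums were chosen with the values known and get no test. Cd3d, Cd3e and Cd3g together had 2, 5, 3 and 3 counts in Ch25h+/+ Tau- and 9, 7, 10 and 12 in Ch25h+/+ Tau+. They had 3, 0, 1 and 2 counts in Ch25h-/- Tau- and 3, 3, 1 and 1 in Ch25h-/- Tau+. The 4 Ch25h+/+ Tau+ libraries lay above the other 12. Their mean was 0.468 ± 0.124 CPM, against 0.162 ± 0.0784 in Ch25h+/+ Tau-, 0.0881 ± 0.0767 in Ch25h-/- Tau- and 0.108 ± 0.0641 in Ch25h-/- Tau+ (SD, n = 4 each). The ratio of pooled levels of Tau+ to Tau- was 2.92 (95% exact interval 1.52 to 5.98) in Ch25h+/+ and 1.22 (0.371 to 4.26) in Ch25h-/-.

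Cd8a and Cd8b1 together had 2, 2, 2 and 0 counts in Ch25h+/+ Tau-, 2, 9, 3 and 12 in Ch25h+/+ Tau+, 0, 0, 0 and 3 in Ch25h-/- Tau- and 1, 1, 1 and 0 in Ch25h-/- Tau+. The 7 genes without Lck summed to 8, 10, 6 and 6 counts in Ch25h+/+ Tau- and 14, 17, 20 and 30 in Ch25h+/+ Tau+. They summed to 6, 0, 6 and 7 counts in Ch25h-/- Tau- and 8, 11, 3 and 2 in Ch25h-/- Tau+. In CPM the lowest Ch25h+/+ Tau+ library (replicate 2) and the highest Ch25h-/- Tau+ library (replicate 2) were both at 0.715. The 4 group means were 0.369 ± 0.127, 0.977 ± 0.296, 0.278 ± 0.186 and 0.331 ± 0.268 CPM in the same order of groups (SD, n = 4 each).

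**Figure D3:**
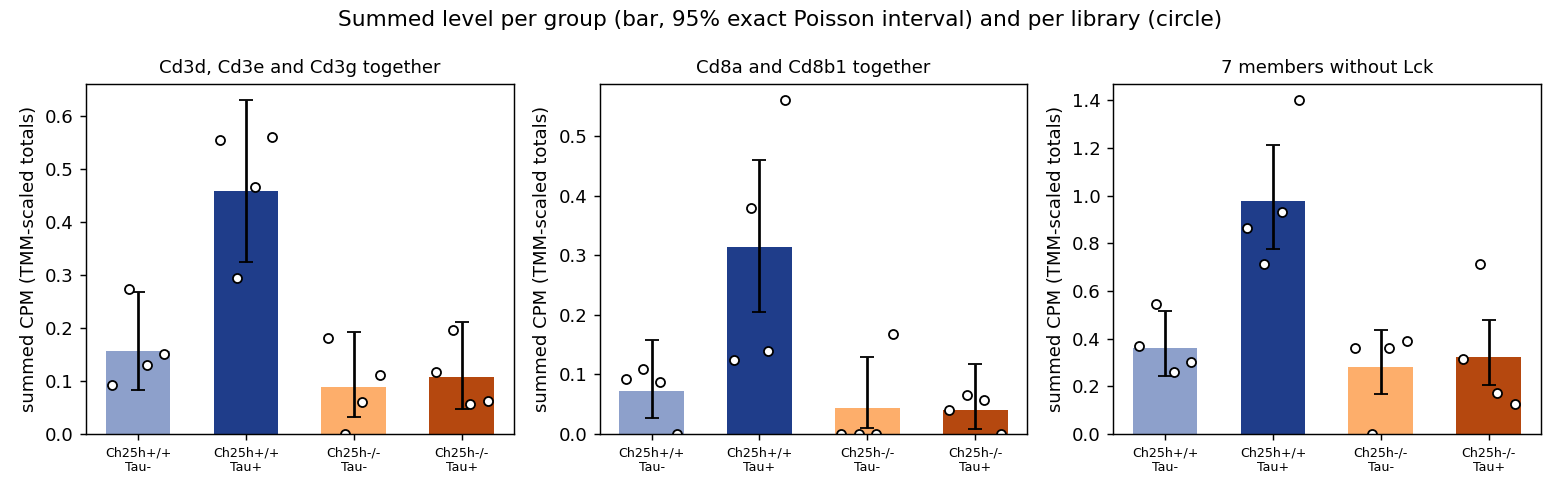
Summed level in CPM (y axis, linear from 0) of the 3 CD3 genes, the 2 CD8 genes and the 7 genes without Lck, in the 4 groups (x axis); bars are pooled group levels with 95% exact Poisson intervals for counting error, and circles are libraries. The 4 Ch25h+/+ Tau+ libraries lie at 0.294 to 0.560 CPM for the CD3 genes, above the other 12.

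Tau+ against Tau- without Ch25h gave no call among the 8 genes, where 0.0395% of genes passed edgeR's test in the filtered fit and 0.0824% in the fit of all genes with at least 1 count. None of the 8 was under 0.05 before adjustment, as 4.4% of all genes were. Pooled levels were higher in Tau+ for 3 genes, lower for 4 and equal at 0 for Cd3d. None of the 8 separated the groups, where 0.906% of all genes lay wholly higher and 0.812% wholly lower. Lck had a log2 fold change of -0.20 (SE 0.39, adjusted p = 1.0 by edgeR). Cxcr6, with 7 counts in Tau- and 12 in Tau+, had a ratio of 1.57 (95% exact interval 0.569 to 4.70).

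Ch25h loss beside the tau transgene compares Ch25h-/- Tau+ with Ch25h+/+ Tau+, the same 4 libraries that stood highest above, so its values and those of the first comparison are not independent. By edgeR's test none of the 8 passed, where 3.55% of the filtered genes and 2.58% of genes with at least 1 count passed. Cd8a had the smallest p, with a log2 fold change of -3.57 (SE 1.22) and an adjusted p of 0.109 by edgeR. Cd3d, at 0 counts in Ch25h-/-, had an adjusted p of 0.151 by edgeR, and Cd3e a log2 fold change of -1.91 (adjusted p = 0.337 by edgeR). These 3 genes were under 0.05 before adjustment, as were 14.7% of all genes with at least 1 count. Of the 8 genes, 7 had lower pooled levels in Ch25h-/- and Cxcr6, with 12 counts in each group, a slightly higher one. Leaving out 1 library turned the direction of Lck in 1 and of Cxcr6 in 2 of 16 fits.

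Cd3d, Cd3e and Cd8a did not overlap between these groups, against 3.43% of all genes that lay wholly lower in Ch25h-/- Tau+. Each gave an exact two-sided permutation p of 0.0286 (n = 4 against 4), unadjusted. Cd3e and Cd8a separated only once depth was taken into account, since both groups held a library with 3 counts of Cd3e and both a library with 1 count of Cd8a. With Ch25h-/- set at the floor of 3 counts over the group Cd3d was at least 2.697-fold lower, and the 95% exact interval of its ratio ran from 0 to 0.564. The ratio of pooled levels, Ch25h-/- to Ch25h+/+, was 0.0585 for Cd8a (95% exact interval 0.00141 to 0.368), which rests on 1 count in Ch25h-/-, under the floor, against 19. It was 0.262 (0.0641 to 0.802) for Cd3e and 0.234 (0.0944 to 0.510) for the 3 CD3 genes together. Single libraries moved the fitted log2 fold changes: Cd8a went from -3.57 to -5.13 without Ch25h-/- Tau+ replicate 1 and to -2.93 without Ch25h+/+ Tau+ replicate 4, and Cd3e from -1.91 to -3.02 without Ch25h-/- Tau+ replicate 1. Cd3g ranged from -2.698 without Ch25h-/- Tau+ replicate 2 to -0.81 without its replicate 1, and Nkg7 went from -1.68 to -3.37 without Ch25h-/- Tau+ replicate 2.

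Lck had a log2 fold change of -0.31 (SE 0.38) for Ch25h loss in Tau+, with an adjusted p of 0.656 by edgeR. With limma-voom and quality weights in place of edgeR, Cd8a passed, with a log2 fold change of -2.75 and an adjusted p of 0.0320. It had 1 count in Ch25h-/- Tau+ and 19 in Ch25h+/+ Tau+, and the share of all genes that limma-voom called was not recorded. DESeq2 called none of the 8 genes in any comparison and gave no adjusted p in 28 of its 40 tests of them, and its smallest unadjusted p was 0.0189. The library class moves with this comparison. The 7 genes without Lck summed to 0.259 to 1.40 CPM in the 9 libraries poor in the ribosomal transcript and to 0 to 0.715 CPM in the 7 rich ones. Replicate 1 of Ch25h-/- Tau+, which is poor in it, was at 0.313 CPM, below the 0.715 to 1.40 CPM of the 4 Ch25h+/+ Tau+ libraries. With the class as a term in the fit, Cd8a had a log2 fold change of -2.33 (SE 1.79, adjusted p = 1.0 by edgeR).

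Ch25h loss without the transgene gave no call among the 8 genes either, where edgeR called 1.03% of the filtered genes and 1.54% of genes with at least 1 count. Before adjustment none of the genes was under 0.05, as 13.5% of all genes were. Pooled levels were higher in Ch25h-/- for 3 genes and lower for 5. None of the 8 separated the groups, where 4.57% of all genes lay wholly higher and 4.75% wholly lower, and Lck had a log2 fold change of 0.01 (SE 0.38, adjusted p = 0.987 by edgeR). The 7 genes without Lck had 19 counts in Ch25h-/- and 30 in Ch25h+/+, a ratio of 0.771 (95% exact interval 0.410 to 1.42). The interaction, which tests whether the tau effect differs between the Ch25h genotypes, called 0 of the 8 by edgeR, where 0.0338% of filtered genes and 0.168% of genes with at least 1 count passed. Before adjustment none was under 0.05, as 4.06% of all genes were. For Lck it was -0.33 (SE 0.54, adjusted p = 1.0 by edgeR), and no difference in the tau effect between the genotypes was shown for any of the 8.

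Other genes of the T cell receptor and its signalling (22 genes, 9 past the filter) had 0 calls in each of the 5 comparisons, with and without the filter. Trac, the constant part of the alpha chain, had 9, 3, 7 and 5 counts in Ch25h+/+ Tau-, 6, 7, 7 and 10 in Ch25h+/+ Tau+, 8, 2, 1 and 0 in Ch25h-/- Tau- and 11, 7, 3 and 0 in Ch25h-/- Tau+. Unlike Cd3g, Trac overlapped between all groups, with a ratio of 1.25 (95% exact interval 0.707 to 2.23) for tau in Ch25h+/+. Trbc2, a constant part of the beta chain, had 86 to 265 counts per library. Trbc1, its near-identical copy, had 0 to 3 counts, and the split of reads between them is uncertain. Over the 16 libraries Trbc2 had 2782 counts, against 86 for Trac and 36 for Cd3e, and the source of the Trbc2 reads was not tested.

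Cytotoxic effector genes (13 genes, 1 past the filter) had 0 calls in the 5 comparisons, with and without the filter. Ifng, the interferon of activated T and NK cells, had 0 counts in all 16 libraries. Gzmb, a granule protease, had 0 to 2 counts, and Prf1, which forms pores in target cells, had 0 to 3. Gzmm, the gene past the filter, lay at 27 to 72 counts, with a log2 fold change of -0.12 (SE 0.25, adjusted p = 0.972 by edgeR) for tau in Ch25h+/+. None of the NK cell markers (6 genes) passed the filter and none was called. Klrb1c, the NK1.1 receptor and the highest of them, had 0, 0, 2 and 0 counts in Ch25h+/+ Tau-, 2, 4, 7 and 4 in Ch25h+/+ Tau+, 0, 0, 0 and 1 in Ch25h-/- Tau- and 1, 1, 0 and 0 in Ch25h-/- Tau+.

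Summed over the 6 NK markers, Ch25h+/+ Tau+ lay at 0.252 to 0.372 CPM. The Ch25h+/+ Tau- libraries reached 0.129 CPM at most, and the Ch25h-/- libraries 0.279 CPM in Tau- and 0.235 CPM in Tau+, each group with libraries at 0. NK cells express Nkg7 and can express Lck and Cxcr6, and their part in the counts of the 8 genes was not tested.

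Residency and inhibitory receptors of T cells (8 genes, 2 past the filter) had 0 calls with the filter. Without it Pdcd1, which encodes the inhibitory receptor PD-1, passed in both comparisons that use Ch25h+/+ Tau+. It was higher with tau and lower with Ch25h loss, where 1.05% and 1.75% of genes with at least 1 count were called in these directions. Pdcd1 was chosen after its values were seen. It had 1, 1, 0 and 0 counts in Ch25h+/+ Tau-, 3, 20, 16 and 25 in Ch25h+/+ Tau+, 1, 1, 1 and 1 in Ch25h-/- Tau- and 4, 1, 1 and 2 in Ch25h-/- Tau+. Replicates 2, 3 and 4 of Ch25h+/+ Tau+ were high. Its replicate 1, with 3 counts, was at 0.185 CPM, just above the highest Ch25h-/- Tau+ library with 4 counts (0.156 CPM). The log2 fold change was 4.62 (SE 0.80, adjusted p = 0.000205 by edgeR) for tau in Ch25h+/+ and -2.76 (SE 0.66, adjusted p = 0.0134) for Ch25h loss in Tau+. The interaction, -3.84, had an adjusted p of 0.763. The call for Ch25h loss was lost without Ch25h+/+ Tau+ replicate 4 (adjusted p = 0.0943), without Ch25h-/- Tau+ replicate 3 (adjusted p = 0.0517) and with the library class as a term, where the log2 fold change was -2.21 (SE 1.06). Its log2 fold change lay at -3.13 to -2.46 over the 16 fits that left out 1 library.

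Ligands that attract T cells or hold them on vessels (11 genes, 6 past the filter) had 3 genes higher with tau in Ch25h+/+ and 3 lower with Ch25h loss in Tau+, among the filtered genes, of which 1.47% and 2.4% were called in these directions. Over the 6 past the filter, median log2 fold changes were 2.23 and -1.55, against -0.0080 and 0.0044 over all filtered genes. Ccl4 had 15 to 32 counts in Ch25h+/+ Tau+ and 0 to 5 in the other groups, and Cxcl10 46 to 73 against 2 to 33. Both passed the filter through Ch25h+/+ Tau+, the high group of these comparisons, so the medians and calls are in part selected by it. Cxcl16, the ligand of Cxcr6, rose from 1.44 ± 0.205 to 4.32 ± 1.51 CPM with tau in Ch25h+/+ (SD, n = 4 each), a log2 fold change of 1.58 with an adjusted p of 0.00153 by edgeR. It was at 1.97 ± 0.594 CPM in Ch25h-/- Tau+ (SD, n = 4; log2 fold change -1.14, adjusted p = 0.0209 by edgeR). Cxcr6 did not pass the test, and its interval for tau in Ch25h+/+ (0.622 to 5.14) is too wide to tell whether it moved with Cxcl16. Ccl4, a chemokine that attracts T cells, and Cxcl10, a ligand of CXCR3, rose by 3.93 and 2.87 on the log2 scale (adjusted p = 0.00238 and 0.00826 by edgeR). With the library class as a term, the calls of Cxcl16, Ccl4 and Cxcl10 for Ch25h loss were lost, with log2 fold changes of -1.30, -3.59 and -3.05. When each of the 16 libraries was left out in turn, Cxcl16 lost its call for Ch25h loss in 3 fits, without Ch25h+/+ Tau+ replicate 4 or Ch25h-/- Tau+ replicates 3 or 4. Ccl4 lost it in 2, without Ch25h+/+ Tau+ replicate 4 or Ch25h-/- Tau+ replicate 3, and Cxcl10 in 11, while its log2 fold change lay at -3.13 to -1.67. The calls of these 3 for tau in Ch25h+/+ were made in all 16 fits. None of the 11 was called for tau in Ch25h-/- or for the interaction, with or without the filter. Of all filtered genes 0.0395% and 0.0338% were called there, and of genes with at least 1 count 0.0824% and 0.168%.

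**Figure D4:**
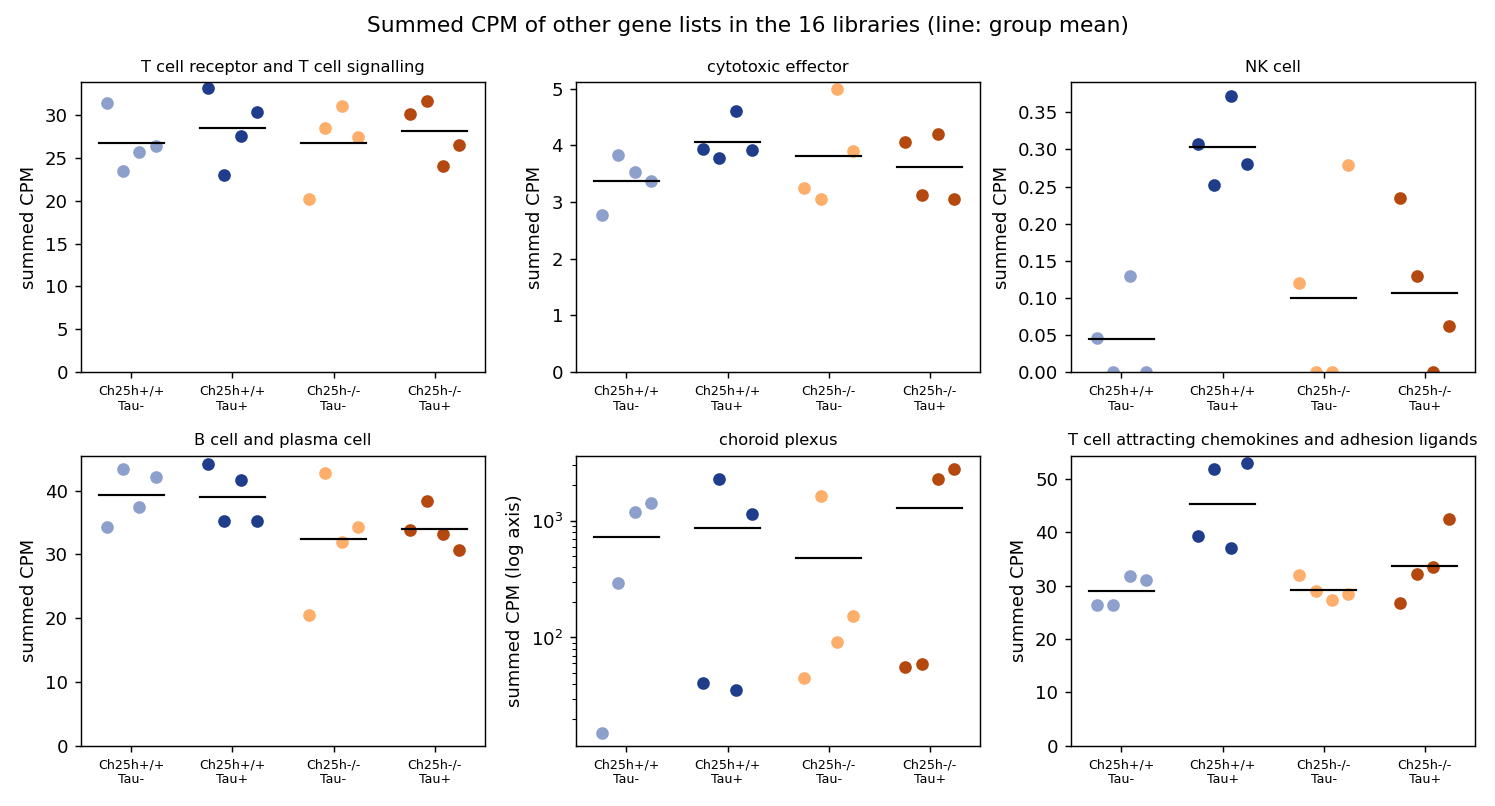
Summed CPM per library (y axes, linear from 0 except the log axis for choroid plexus) of 6 other gene lists in the 4 groups (x axis); points are libraries and lines group means. The T cell receptor list lies at 20.2 to 33.2 CPM in all groups, the NK list is highest in Ch25h+/+ Tau+ (0.252 to 0.372 CPM), and choroid plexus spans 15.3 to 2753 CPM within groups. In the T cell receptor list most counts are of Trbc2, Cd6 and Tcf7 (2782, 1575 and 1566). Trac has 86 over the same 16 libraries.

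Markers of 6 other cell types were not called in any of the 5 comparisons. They were those of B and plasma cells (8 genes, 20.5 to 44.2 CPM summed), neutrophils (7 genes, 0.420 to 2.36), red blood cells (5 genes, 2.32 to 37.7), monocytes and dendritic cells (8 genes, 35.4 to 47.7), border-associated macrophages (5 genes, 5.09 to 19.0) and choroid plexus (6 genes). The monocyte and dendritic sum mostly follows Zbtb46, Flt3 and Siglech (4832, 3378 and 3968 counts over the 16 libraries). Siglech is also used here as a microglia marker, while Ccr2 had 121 counts and Ly6c2 52. In the B and plasma cell list Ighm had 10627 counts and Igkc 194. Blood content, read from the red blood cell genes, ranged from 2.32 to 24.95 CPM among the Ch25h+/+ Tau- libraries and from 4.18 to 37.7 CPM with tau. Its part in the T cell marker counts was not tested.

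Over the 16 libraries genes most like the mean log2 profile of the 8 T cell markers, as a description with no test, included Grn (Pearson correlation 0.899), 2310022B05Rik, Mcm3, Isg20, AU020206, Ifi207, Pld4, C4b and Cd274 (0.846). Depth, library class and group differ among these libraries and are common to all genes within each. The profile was highest, at -0.397, in Ch25h+/+ Tau+ replicate 1, which also had the most Lck (2.71 CPM). How much of the profile is Lck was not tested. After group means were subtracted the most alike were 2310022B05Rik (0.846), Gm45094, Nos2, Vsp35l and Twnk (0.799). Of the genes named first, 2310022B05Rik recurred. Among pairs of the 8, Cd3g and Cd8b1 correlated at 0.776 and Cd3d and Cd8a at 0.700, and at 0.394 and 0.433 once group means were subtracted. Lck correlated with each of the other 7 at -0.218 to 0.396.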

How the data were processed

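Raw counts per gene and library, deposited by the authors in 1 table of 54532 entries, were used as they stand. Per the submitters' processing notes, reads were aligned with STAR 2.7 and the build was GRCm38; the counting program, annotation and use of strand are not given in the sources used here. The 8 genes and all gene lists were chosen with earlier results of these data known.

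All 16 libraries were fitted with edgeR 4.0.16 in R 4.3.3 (TMM, group means, quasi-likelihood F test, two-sided, Benjamini-Hochberg adjustment over all genes in the fit, threshold 0.05), once after filterByExpr (minimum count 10, 17736 genes) and once over the 33997 genes with at least 1 count. The SE is the log2 fold change divided by the root of F. Groups were also compared on CPM by exact permutation (SciPy 1.17.1). Pooled levels have exact Poisson intervals and ratios exact binomial ones. Depth was 15530352 to 25602500 counts. The fits were tested on simulated counts. Named genes were the 8, up to 3 genes of each list called for tau in Ch25h+/+ or otherwise its most abundant gene, the most alike genes, overlapping genes, Ch25h and Prnp; Trac, Trbc1, Ifng, Gzmb, Prf1 and Pdcd1 were chosen after their values were seen. Some genes that this rule names are not reported here. Alternatives were other size factors, a minimum count of 3, DESeq2 1.42.0, limma-voom 3.58.1, only the groups compared, the library class (CT010467.1 at 1000 CPM or more) as a term, thinned counts and leaving out each library. Positions and exon lengths are from GENCODE M21 (GRCm38).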

Additional observations from a re-analysis of the deposited data

Results flagged for a closer look

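Of 32 groups of 4 libraries (8 genes in 4 groups), 7 held a value set apart from the other 3 by more than the critical value of Dixon's test. Chance flags about 1 in 20 groups of continuous values, a rate that does not apply to counts this low, since any count beside 3 libraries at 0 is flagged. Each was the highest library of its group. Cd3e was at 0.219 CPM (4 counts) in Ch25h+/+ Tau- replicate 2. Cd3g was at 0.0432 CPM in Ch25h+/+ Tau- replicate 3 and at 0.0603 CPM in Ch25h-/- Tau- replicate 3, 1 count each. Cd8a was at 0.167 CPM (3 counts) in Ch25h-/- Tau- replicate 4 and at 0.0391 CPM (1 count) in Ch25h-/- Tau+ replicate 1. Cd8b1 was at 0.0432 CPM (1 count) in Ch25h+/+ Tau- replicate 3, and Nkg7 at 0.0650 CPM (1 count) in Ch25h-/- Tau+ replicate 2. In 6 of the 7 the other 3 libraries had 0 counts.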

How the results depend on the processing

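No call was made among the 8 genes in the 5 comparisons when each of the 16 libraries was left out in turn (smallest adjusted p 0.0528, Cd8a for Ch25h loss in Tau+). Over the 8 other alternatives 1 call was made: with limma-voom, 1 of the 7 genes that the filter drops, Cd8a, passed for Ch25h loss in Tau+. The cause was not tested, and the share of all genes that limma-voom called was not recorded. With limma-voom the log2 fold change of Lck turned to -0.28 for tau in Ch25h+/+, 0.093 for Ch25h loss in Tau+, -0.17 for Ch25h loss in Tau- and 0.27 for the interaction; with thinned counts it was -0.011 for Ch25h loss in Tau-. Leaving out 1 library gave Lck -0.29 to 0.39 for tau in Ch25h+/+, -0.38 to 0.13 for tau in Ch25h-/-, -0.51 to 0.11 for Ch25h loss in Tau+, -0.32 to 0.27 for Ch25h loss in Tau- and -0.59 to 0.087 for the interaction. It gave Nkg7 -0.17 to 1.60 for tau in Ch25h+/+ and Cxcr6 -0.61 to 0.41 for Ch25h loss in Tau+. Without the filter 6 of the 11 ligands in place of 3 were called higher for tau in Ch25h+/+ and 5 in place of 3 lower for Ch25h loss in Tau+, and 4 of the 8 MHC class I genes in place of 1 lower for the interaction, where 1.05%, 1.75% and 0.153% of all genes with a count were called in these directions. For Ch25h loss in Tau-, H2-D1 was called lower only without the filter (log2 fold change -0.345, adjusted p = 0.0473 by edgeR). P2ry12, a microglia marker, was called higher only without it (0.463, adjusted p = 0.0299 by edgeR). Of genes with a count 1.09% and 0.45% were called in these directions. At 3 counts to 0.195 CPM, depth limits the values of the 7 genes that the filter drops. No paired analysis was possible because the labels give no replicate numbers; those used here follow the order of the records.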

Other observations

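Genes of MHC class I presentation, which display peptides to CD8 T cells, were abundant enough to test. All 8 passed the filter; 7 were higher with tau in Ch25h+/+ and all 8 were lower with Ch25h loss in Tau+, where 1.47% and 2.4% of filtered genes were called in these directions. H2-D1, a classical class I heavy chain, rose from 57.9 ± 4.77 to 121 ± 8.47 CPM with tau in Ch25h+/+ and was at 53.6 ± 2.24 CPM in Ch25h-/- Tau+ (SD, n = 4 each). Its log2 fold changes were 1.07 and -1.18 (adjusted p = 2.43e-06 and 2.61e-06 by edgeR), and the interaction was -0.84 (adjusted p = 0.0222), the 1 gene of the 8 called for it. B2m, the light chain, rose by 0.93 on the log2 scale (adjusted p = 0.000136 by edgeR), as did H2-K1, another heavy chain, by 1.05 (adjusted p = 6.78e-05). Class I heavy chains share reads with near-identical copies, so their levels are uncertain.

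Of 7 microglia markers, 3 were higher with tau in Ch25h+/+ and 4 lower with Ch25h loss in Tau+, where 1.47% and 2.4% of filtered genes were called in these directions. Csf1r, the receptor for colony stimulating factor, rose by 0.50 on the log2 scale and Cx3cr1, the fractalkine receptor, by 0.51 (adjusted p = 0.00153 and 0.0229 by edgeR). The call of Cx3cr1 was lost in 5 of the 16 fits that left out 1 library for tau in Ch25h+/+ and in 8 for Ch25h loss in Tau+. With the library class as a term both lost their call for Ch25h loss in Tau+, at log2 fold changes of -0.50 for Csf1r and -0.42 for Cx3cr1 in place of -0.47 and -0.43.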
